A study of Mus musculus with 5 samples.

Results

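Transcript levels of 10 genes of the BCL2 family, Bcl2, Bcl2l1, Mcl1, Bax, Bak1, Bid, Bad, Bbc3, Bcl2l11 and Bmf, were examined in sorted mouse haematopoietic stem cells (HSCs). They were chosen by name as the core survival and death genes of the family, with earlier results of these data known. All 10 were present among the 11643 genes measured. The cells came from the bone marrow of C57BL/6 mice and were sorted as lineage-negative, c-Kit+, Sca1+, CD150+ and CD48-. The 2 libraries labelled Tle1/3/4-deficient came from mice in which floxed Tle1, Tle3 and Tle4 were to be removed by Vav-Cre, a recombinase driven by the promoter of the pan-haematopoietic gene Vav and so active in all blood cells and not in HSCs alone. The 3 control libraries are described in the labels by the word control. Their titles also carry tags that begin with VavC, which do not spell out a genotype. Neither group has a stated age or sex. TLE proteins are co-repressors that are brought to DNA by partners such as RUNX, TCF and HES factors, and the comparison asks how their loss changes transcription in HSCs. Nothing in the labels says whether the libraries of a group came from separate mice, so p-values measure the spread between libraries, which may be technical.

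BCL2 proteins decide whether the outer mitochondrial membrane stays intact. Guardians (BCL2, BCL-XL from Bcl2l1, and MCL1) hold the pore-forming effectors BAX and BAK in check, and BH3-only proteins (BID, BAD, PUMA from Bbc3, BIM from Bcl2l11, and BMF) either block the guardians or switch on the effectors. Once BAX or BAK opens the membrane, cytochrome c escapes and caspases are activated. In mouse HSCs MCL1 is known to be required for survival, and enforced BCL2 expression enlarges the HSC pool. Much of the family's control is exerted on protein stability and on protein binding, which transcript levels do not show.

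Several features of the libraries bear on these genes. Tle3 went against the label, at 32.3 and 31.6 FPKM (fragments per kilobase of transcript, scaled to the library total) in the libraries labelled deficient, against 2.48, 4.97 and 5.61 FPKM in controls. Tle4 was at 0.353 and 0.203 FPKM in libraries labelled deficient and at 5.67, 0.0129 and 5.29 FPKM in controls. Tle1, like Tle3, was not lower, at 2.84 and 4.37 FPKM in libraries labelled deficient, against 1.83, 0.811 and 3.33 FPKM in controls, with overlap. Whole-gene values include exons outside a floxed stretch, so they do not settle whether the deletion took place, and all directions below rest on the labels. Of the genes behind the sort, Kit was below every control, at 102.3 and 101.6 FPKM against 165, 185 and 149 FPKM, and Slamf1 (CD150) above every control, at 31.8 and 31.03 FPKM against 14.9, 24.0 and 21.1 FPKM. Ly6a (Sca1) was at 155 and 14.05 FPKM against 57.8, 96.3 and 199 FPKM, lowest in deficient-labelled replicate 2. Transcripts of Cd48, whose protein was the one sorted against, were found in every library, at 7.19 and 23.4 FPKM against 3.22, 4.63 and 13.01 FPKM, and were highest in that same library. Relative to control replicate 1, depth estimated from the lowest values was 1.11 and 1.28 in deficient-labelled replicates 1 and 2, and 1.10 and 1.46 in control replicates 2 and 3. Genes listed at 0 numbered 1346 and 968 in the libraries labelled deficient and 1438, 1221 and 656 in the controls. Absolute depth is unknown, so no counting interval can be given.

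Because TLE proteins act through DNA-bound partners, the sequence upstream of the family's start sites was read from RefSeq (GRCm38.p6), which has 18 start-site windows for the 10 genes. The windows below, for Bid, which differed most clearly between the groups, and Bax, the most abundant member, cover the 250 bases before the start, 5′ to 3′ on the gene's strand. Both genes lie on the minus strand, at chr6:120916825-120917074 and chr7:45466899-45467148. Capitals mark matches on either strand to TGTGGT (RUNX core), CTTTGA (TCF core), CACGTG (an E-box bound by HES-type factors) and CACNAG (N-box).

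Bid: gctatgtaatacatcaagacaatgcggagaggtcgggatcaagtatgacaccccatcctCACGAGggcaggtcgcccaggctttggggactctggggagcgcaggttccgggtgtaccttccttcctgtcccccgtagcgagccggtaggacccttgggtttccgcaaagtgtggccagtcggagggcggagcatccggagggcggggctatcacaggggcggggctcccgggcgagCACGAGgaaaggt

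Bax: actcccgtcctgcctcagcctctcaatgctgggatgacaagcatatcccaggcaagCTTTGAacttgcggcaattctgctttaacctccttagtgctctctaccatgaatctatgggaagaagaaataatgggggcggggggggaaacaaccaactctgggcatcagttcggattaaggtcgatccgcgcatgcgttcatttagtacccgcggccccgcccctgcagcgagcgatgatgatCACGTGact

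The Bid window held 2 N-box matches, and the Bax window held 1 TCF core and 1 E-box match. Among the family's 18 windows, the RUNX core was present in 11.1%, against 14.0% of all 32851 windows. The TCF core was present in 5.56% against 13.8%, the E-box in 11.1% against 6.02%, and the N-box in 27.8% against 36.7%. A match describes letters in the window and not a bound site, and the motifs overlap no other motif in the printed windows.

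The family ranged from nearly silent to highly expressed, with Bax above the rest. FPKM is per length, so genes were set side by side within a library. The annotation used is not known and several members share exon bases with other genes, so levels of different genes compare only roughly. Bax ranked first of the 10 in all 5 libraries, at 224 and 132 FPKM in the libraries labelled deficient and 140, 142 and 156 FPKM in controls. That placed it between percentiles 93.6 and 96.1 of all genes in each library. Bad followed by mean level, then Bcl2l1, Bid, Bcl2, Bbc3, Mcl1, Bak1, Bcl2l11 and Bmf. Only Bax stood apart from its neighbour in that order in 5 of 5 libraries. The other neighbouring pairs kept their order in 3 or 4 of the 5, so the middle of the order is not fixed by these data.

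**Figure D1:**
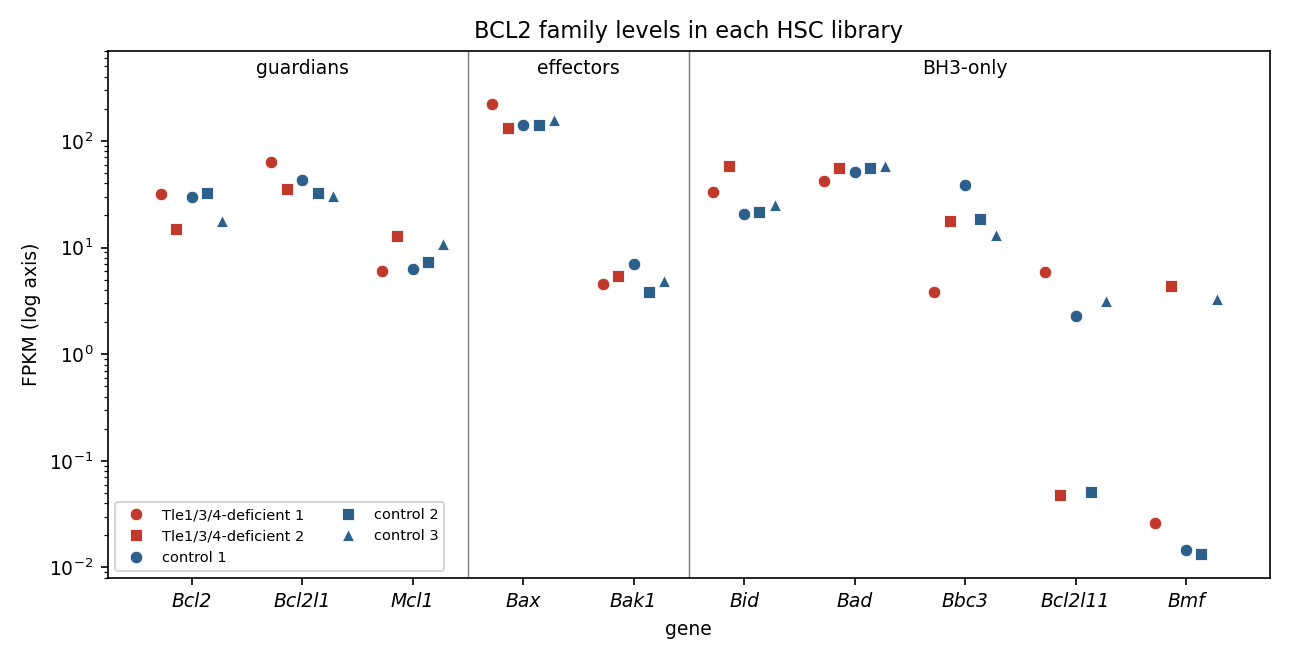
FPKM of each BCL2 family gene (log axis) in the 2 deficient-labelled (red) and 3 control (blue) libraries, one point per library, grouped by role. Bax is highest throughout, both deficient-labelled points of Bid lie above its 3 controls, and Bcl2l11 and Bmf fall below 0.1 FPKM in 2 and 3 libraries.

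None of the 10 genes passed the test between groups (limma on log2(FPKM + 1), adjusted over 10570 genes, threshold 0.05), where 0.0189% of all genes did, 2 genes in all. Of these, 1 was higher and 1 lower in the libraries labelled deficient, 0.00946% of all genes in each direction. At an unadjusted p under 0.05 there was 1 member, Bid, against 8.45% of all genes. The members' log2 fold changes, deficient-labelled minus control, ran from -1.23 for Bbc3 to 0.96 for Bid, with 6 positive and 4 negative and a median of 0.14. The median over all genes tested was -0.10. The groups did not overlap for 1 of the 10, Bid, against 26.1% of all genes in either direction and 10.2% with both libraries labelled deficient above every control. All 10 passed the filter of a mean of at least 1 FPKM. In bulk RNA of this kind, fewer cells of a type and less RNA per cell cannot be told apart.

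**Figure D2:**
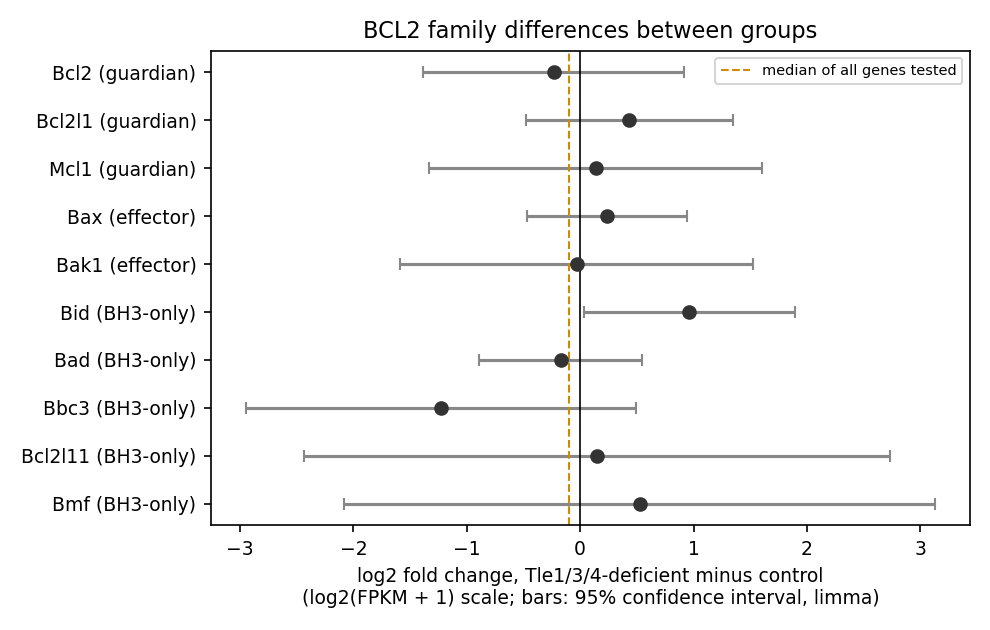
Log2 fold change of each family gene (deficient-labelled minus control, log2(FPKM + 1) scale) with its 95% confidence interval from limma. The dashed line is the median of all genes tested, -0.10, and the interval of Bid alone leaves out 0, before adjustment over genes.

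Among the guardians, Bcl2l1 and Bcl2 were the main transcripts by mean level. Mcl1 was the lowest guardian in every library, but close to Bcl2 in deficient-labelled replicate 2. Bcl2l1, whose product BCL-XL protects red cell and platelet lineages in particular, was at 63.7 and 35.2 FPKM in the libraries labelled deficient and at 42.8, 32.5 and 30.4 FPKM in controls. Only deficient-labelled replicate 1 stood above the controls, so the groups overlapped. Its log2 fold change was 0.43 (SE 0.39, 95% interval -0.48 to 1.35, limma adjusted p = 0.772). Leaving out deficient-labelled replicate 1 gave 0.016, and leaving out replicate 2 gave 0.85.

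Bcl2, the founding survival gene of the family, was at 32.0318 and 14.8 FPKM in the libraries labelled deficient, against 29.6, 32.7 and 17.9 FPKM in controls. The values of around 30 and those of around 15 were found in both groups. The log2 fold change was -0.24 (SE 0.50, 95% interval -1.39 to 0.92, adjusted p = 0.921 by limma) and turned to 0.30 without deficient-labelled replicate 2. Exons of Bcl2 share bases with the antisense gene D630008O14Rik. Mcl1, a short-lived guardian, was at 6.01 and 12.9 FPKM in the libraries labelled deficient, against 6.29, 7.37 and 10.9 FPKM in controls. Its highest values were in the same libraries, deficient-labelled replicate 2 and control replicate 3, that had the lowest Bcl2. Its log2 fold change was 0.14 (SE 0.63, 95% interval -1.33 to 1.60, limma adjusted p = 0.964), -0.36 without deficient-labelled replicate 2 and -0.014 without control replicate 1. The Bcl2 to Mcl1 ratio was 5.33 and 1.15 in the libraries labelled deficient and 4.70, 4.44 and 1.64 in controls. Those libraries also had the greatest estimated depth, 1.28 and 1.46, and the fewest genes at 0, 968 and 656. The part of depth in these values was not tested.

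The effectors differed from each other much more than between groups. The Bax to Bak1 ratio was 49.2 and 24.4 in the libraries labelled deficient and 20.1, 37.2 and 31.9 in controls. Bax was among the least variable members in controls, with an SD of 0.0836 on the log2 scale, against a median of 0.258 over 526 genes of like level. Its libraries labelled deficient, however, lay on either side of all 3 controls (224 and 132 against 140 to 156 FPKM). Between groups the log2 fold change was 0.24 (SE 0.30, 95% interval -0.47 to 0.94, limma adjusted p = 0.85), and -0.14 without deficient-labelled replicate 1. Bak1 was at 4.55 and 5.40 FPKM in the libraries labelled deficient and at 6.95, 3.82 and 4.88 FPKM in controls. Both deficient-labelled values lay within the range of the controls (log2 fold change -0.031, SE 0.67, limma adjusted p = 0.993), and the sign turned, to 0.077 under median-of-ratios scaling, 0.11 under quantile normalization, 0.072 without deficient-labelled replicate 1 and 0.16 without control replicate 1. Exons of Bak1 share bases with Ggnbp1 on the opposite strand, and exons of Bax with the annotated gene Gm45808 on the same strand, so reads of these pairs may be shared.

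Bid showed the clearest difference between groups in the family. BID is the BH3-only protein that caspase 8 cuts, which links death receptors to mitochondria. It was at 33.5 and 58.5 FPKM in the libraries labelled deficient and at 20.7, 21.4 and 24.8 FPKM in controls. Both deficient-labelled values exceeded every control, as in 10.2% of all genes tested. With 1 of 10 members doing so, the family was near that share. The mean was 46.02 ± 17.7 against 22.3 ± 2.21 FPKM (SD, n = 2 and 3), a ratio of 2.06. The log2 fold change of 0.96 (SE 0.40, 95% interval 0.04 to 1.89) was not past the threshold over all genes (limma adjusted p = 0.574). The adjusted p ranged from 0.368 to 0.749 over all alternatives tried. The controls varied little, with an SD of 0.134 on the log2 scale, against a median of 0.427 over 1806 genes of like level. The deficient-labelled libraries differed from each other by 0.787 on the same scale.

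The Bid difference was unequal in size between the deficient-labelled libraries. Both lay above every control, so leaving out either of them could not turn its sign. Leaving out deficient-labelled replicate 2 gave a log2 fold change of 0.57, and leaving out replicate 1 gave 1.36. Replicate 2, with the higher Bid, also had the highest summed neutrophil, erythroid and macrophage markers. The 9 neutrophil granule markers, all measured and all above every control, summed to 10779 and 65096 FPKM in the libraries labelled deficient and to 287, 2603 and 1698 FPKM in controls, with none listed at 0. The 5 measured of 9 erythroid markers summed to 80.5 and 239 FPKM against 9.28, 28.8 and 29.9 FPKM, with 2 above every control and Alas2 at 0 in control replicate 1. The 5 primary granule markers summed to 456 and 3200.1 FPKM against 288, 457 and 462 FPKM, with 2 above every control and none at 0. Prtn3 made up 450 FPKM of the sum in deficient-labelled replicate 1. Mpo in that library was at 1.15 FPKM, against 6.25, 41.7 and 11.8 FPKM in controls. The 8 megakaryocyte and platelet markers summed to 8111 and 3587 FPKM against 1094, 729 and 435 FPKM, with 5 above every control and Selp at 0 in control replicate 2. The 3 measured of 8 T and NK cell markers summed to 349 and 195 FPKM against 46.3, 105 and 35.2 FPKM, with 2 above every control. Nearly all of this was Nkg7, at 345 and 193 FPKM against 41.2, 105 and 34.0 FPKM. Cd4 went the other way, at 0 and 0.0174 FPKM against 5.10, 0 and 1.17 FPKM. The 3 measured of 7 macrophage and dendritic cell markers summed to 10.6 and 62.2 FPKM against 13.5, 0.08995 and 12.7 FPKM, with 2 above every control. The remaining marker, Cd68, was at 0.112 and 43.0 FPKM against 13.5, 0 and 11.6 FPKM. The 11 HSC markers, all measured, summed to 873 and 652 FPKM against 1030.4, 975 and 1038 FPKM, with 2 above every control, Slamf1 and Gata2, and 4 below. The part of other cells in the Bid values was not tested.

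Bid and Bcl2l13, a distant relative on the opposite strand, share exon bases, and whether the counting used strand is not given in the sources used here. Bcl2l13, named for this overlap, was at 18.7 and 12.7 FPKM in the libraries labelled deficient and at 13.0, 15.1 and 3.84 FPKM in controls (log2 fold change 0.68, limma adjusted p = 0.804, and 0.13 without control replicate 3). In the library with the highest Bid, deficient-labelled replicate 2, Bcl2l13 was below control replicates 1 and 2 and above control replicate 3. The part of shared reads in the Bid values was not tested. Of 10569 other genes tested, the 3 whose profile over the 5 libraries lay nearest to that of Bid were Ccne1, Kpna2 and Ikzf5. Their root-mean-square differences in centred log2(FPKM + 1) were 0.0781, 0.0849 and 0.116, against a median of 0.862 over genes. Ccne1 was at 19.5 and 33.9 FPKM in the libraries labelled deficient, against 11.5, 13.4 and 13.0 FPKM in controls. The choice follows 5 libraries and gives likeness of profile only.

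Bbc3 lay in the opposite direction to Bid but with wide scatter. Its product PUMA is a BH3-only protein induced by p53. It was at 3.79 and 17.7 FPKM in the libraries labelled deficient and at 38.6, 18.4 and 13.2 FPKM in controls. The lowest value was in deficient-labelled replicate 1 and the highest in control replicate 1, while the other 3 libraries lay together, so the groups overlapped. The resulting log2 fold change was -1.23 (SE 0.74, 95% interval -2.95 to 0.49, limma adjusted p = 0.68). Leaving out deficient-labelled replicate 1 gave -0.25, leaving out replicate 2 gave -2.21, and leaving out control replicate 1 gave -0.81. The nearest profiles were those of Hacd4, Tmem41b and Adamtsl5, at root-mean-square differences of 0.185, 0.215 and 0.215, against a median of 1.14.

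Bad was the steadiest member. BAD is a BH3-only protein kept inactive by growth factor signalling. It was at 42.4 and 55.3 FPKM in the libraries labelled deficient and at 50.8, 55.8 and 57.8 FPKM in controls, a range of 1.36-fold from lowest to highest. Only deficient-labelled replicate 1 lay below the controls (log2 fold change -0.17, SE 0.31, 95% interval -0.89 to 0.55, limma adjusted p = 0.907), and without it the log2 fold change was 0.016. Its exons share bases with Gpr137 on the opposite strand.

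Bcl2l11 and Bmf, the remaining BH3-only genes, were each nearly off in some libraries and on in others, in both groups. Bcl2l11 (BIM), a potent activator that is induced when cytokines are withdrawn, was at 5.85 and 0.0478 FPKM in the libraries labelled deficient and at 2.27, 0.0514 and 3.13 FPKM in controls. Deficient-labelled replicate 2 and control replicate 2 were thus the low libraries, 1 from each group. Its log2 fold change was 0.15 (SE 1.11, 95% interval -2.44 to 2.73, limma adjusted p = 0.98). It turned to -1.21 without deficient-labelled replicate 1 and to -0.46 without control replicate 2, and was 1.501 without deficient-labelled replicate 2.

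Bmf, whose product responds to loss of cell attachment, was at 0.0263 and 4.4004 FPKM in the libraries labelled deficient, against 0.0146, 0.0133 and 3.26 FPKM in controls. It was on in deficient-labelled replicate 2 and control replicate 3, the same pair that had the highest Mcl1. For Bmf the log2 fold change was 0.52 (SE 1.12, 95% interval -2.08 to 3.13, limma adjusted p = 0.923). Leaving out deficient-labelled replicate 1 gave 1.72, leaving out control replicate 3 gave 1.22, and leaving out control replicate 1 or 2 gave 0.18. The low values of Bmf lay near multiples of its value in control replicate 1. Relative to control replicate 1 and scaled by estimated depth, Bmf stood at 1.001 in control replicate 2 and 2.002 in deficient-labelled replicate 1. The same measure was 386 in deficient-labelled replicate 2 and 326 in control replicate 3. These depths rest on few low values, 6 of 65 genes for deficient-labelled replicate 2 and 12 of 53 for control replicate 3. Bmf was itself among the low values compared for control replicate 2, so its figure of 1.001 there may be partly built in.

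Such a pattern was common among weakly expressed genes. Of the 2223 genes tested with a mean under 5 FPKM, 69.6% were below 0.1 FPKM in at least 1 library and reached 2 FPKM in another, as were Bcl2l11 and Bmf. Over all genes tested the share was 22.5%, and over the family 2 of 10.

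**Figure D3:**
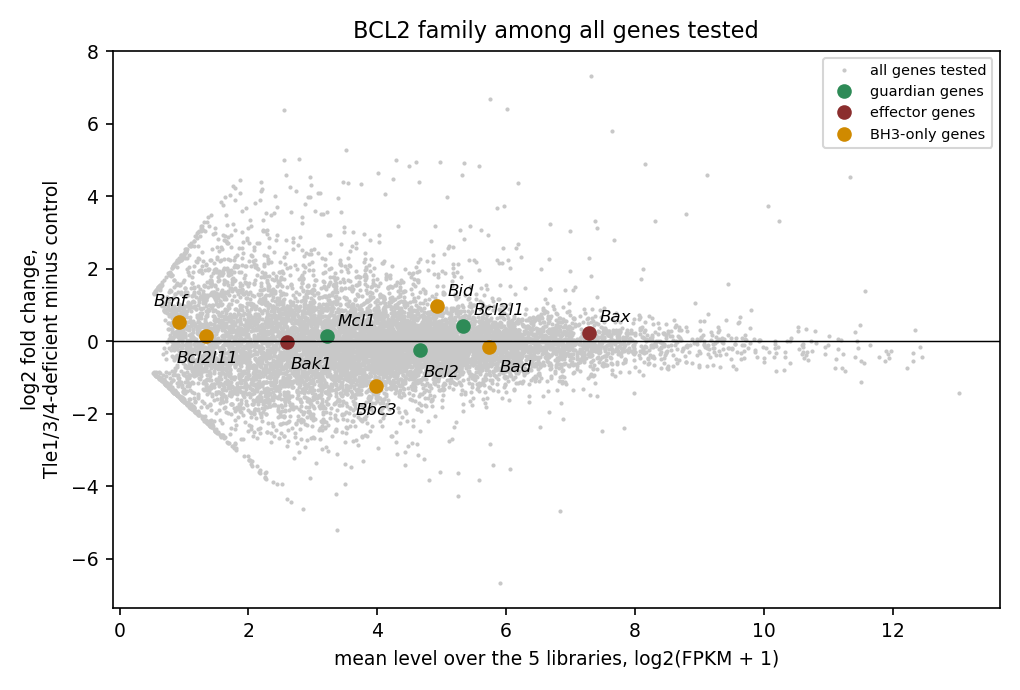
Log2 fold change (deficient-labelled minus control) against mean level over the 5 libraries, on the log2(FPKM + 1) scale, for all 10570 genes tested (grey) and the family by role (coloured). Fold changes spread widely at low levels, where Bmf and Bcl2l11 lie, and the family sits inside the cloud.

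The balance between the classes was then described by summing FPKM. Guardians made up 24.5% and 18.7% of the 10 genes' total in the libraries labelled deficient and 23.3%, 23.1% and 18.4% in controls. Effectors made up 54.9% and 40.8% against 43.4%, 46.5% and 49.9%. BH3-only genes made up 20.6% and 40.5%, against 33.3%, 30.4% and 31.7%. For effectors and BH3-only genes the libraries labelled deficient thus fell on opposite sides of the controls.

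Within the BH3-only class, Bid took a larger share in both libraries labelled deficient than in any control. Bid contributed 39.2% and 43.03% of the class in the libraries labelled deficient and 18.4%, 22.4% and 24.3% in controls, with no overlap. Bbc3 contributed 4.43% and 13.02%, against 34.4%, 19.3% and 12.9%, with overlap. The ratio of guardian to BH3-only transcripts was 1.19 and 0.463 in the libraries labelled deficient, which lie above and below the controls at 0.700037, 0.759 and 0.579. The Bax to Bcl2 ratio was 6.98 and 8.90 in the libraries labelled deficient, against 4.72, 4.35 and 8.71 in controls, and overlapped. The Bcl2l1 to Bcl2 ratio was 1.99 and 2.38, against 1.45, 0.994 and 1.70, and did not overlap. These are descriptions of ratios formed from the members, with no test.

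**Figure D4:**
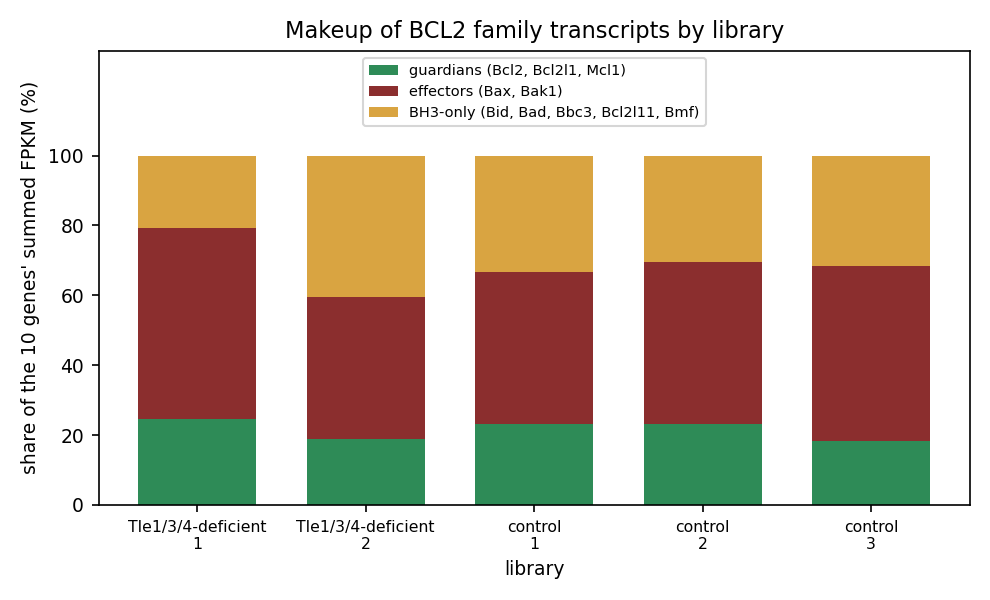
Share of the summed FPKM of the 10 genes (%) taken by guardians, effectors and BH3-only genes in each library, libraries labelled deficient on the left. The BH3-only share is 20.6% in deficient-labelled replicate 1 and 40.5% in replicate 2, on either side of the controls at 30.4% to 33.3%.

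The rest of the death pathway was read from 6 lists of other genes, 80 in all, of which 68 were in the table and 64 were tested. None passed over all genes (limma). At an unadjusted p under 0.05 there were 2 of 64, Casp4 and Ppp3ca, against 8.45% of all genes. In 11 of 64 the groups did not overlap, 6 above and 5 below every control, against 26.1% of all genes. The median log2 fold change was 0.12.

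Other BCL2 relatives, 8 of 17 tested, had 5 positive and 3 negative log2 fold changes. Bnip3l, which tags mitochondria for removal in maturing red cells, was at 64.4 and 51.9 FPKM in the libraries labelled deficient and 58.04, 47.5 and 53.5 FPKM in controls. Bcl2l12 was at 38.7 and 30.5 FPKM, against 101.4, 31.8 and 68.9 FPKM. The groups overlapped for both genes (adjusted p = 0.933 and 0.69, limma), and Bcl2l12 shares exon bases with Irf3 on the opposite strand.

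Of the 14 genes of the apoptosome and mitochondrial release, 9 were positive and 5 negative. The outer membrane channel Vdac3 was at 241 and 163 FPKM in the libraries labelled deficient, against 139, 135 and 161 FPKM in controls, above every control by a narrow margin (limma adjusted p = 0.688). Vdac1 was at 94.9986 and 99.8 FPKM against 86.0, 123 and 129.9 FPKM. Mtch2, a receptor for truncated BID on mitochondria, was at 35.9 and 37.7 FPKM in the libraries labelled deficient and 176, 52.1 and 50.3 FPKM in controls. It lay below every control (log2 fold change -1.05, limma adjusted p = 0.649), with a value of -0.47 when control replicate 1 was left out.

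All 8 caspases were tested, with 5 positive and 3 negative. Casp4, an inflammatory caspase that senses lipopolysaccharide in the cytosol, was at 76.1 and 46.7 FPKM in the libraries labelled deficient, against 40.6, 19.7 and 21.5 FPKM in controls. Both values exceeded every control (log2 fold change 1.18, SE 0.45, limma adjusted p = 0.542). Casp8, the enzyme that cuts BID, was at 45.4 and 37.7 FPKM in the libraries labelled deficient and 42.3, 58.5 and 50.2 FPKM in controls (limma adjusted p = 0.841), and Casp2 at 55.2 and 37.6 FPKM against 47.6, 34.1 and 42.2 FPKM. Both overlapped between groups.

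Among caspase inhibitors, with 3 of 5 genes tested, Cflar, the decoy of caspase 8, was at 19.3 and 24.4 FPKM in the libraries labelled deficient and 48.6, 14.8 and 37.7 FPKM in controls. Birc6 was at 20.2 and 15.2 FPKM, against 26.6, 15.9 and 8.46 FPKM. Neither separated the groups. In the death receptor arm, 2 of 8 tested genes were positive and 6 negative. The death receptor Fas was at 40.02 and 8.15 FPKM in the libraries labelled deficient, against 8.84, 0 and 4.44 FPKM in controls, so that only deficient-labelled replicate 1 was above the controls. Ripk3 was at 67.7 and 84.5 FPKM against 88.8, 68.2 and 100.8 FPKM, and Bcap31 at 252 and 235 FPKM against 284, 133 and 215 FPKM, with overlap in both.

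Regulators of BCL2 proteins had 12 positive and 11 negative of 23 tested. Ppp3ca, a catalytic subunit of calcineurin, which removes the inhibitory phosphates of BAD, was at 17.02 and 10.2 FPKM in the libraries labelled deficient, against 27.7, 44.7 and 28.5 FPKM in controls. It lay below every control (log2 fold change -1.25, SE 0.45, limma adjusted p = 0.505). Trp53, the activator of Bbc3 and Bax, was at 247 and 209 FPKM in the libraries labelled deficient and 349, 268 and 275 FPKM in controls, below every control (log2 fold change -0.38, limma adjusted p = 0.717). Ppp3ca and Trp53 were chosen after their values were seen. In the same list 4 genes, Atf4, Bag1, Ywhaz and Dynll1, went the other way and lay above every control. With Pim3, those below every control numbered 3. Over all genes tested the shares were 10.2% above and 15.9% below. Akt1, a kinase that inactivates BAD, was at 30.05 and 29.6 FPKM in the libraries labelled deficient and is listed at 0, 27.2 and 29.9 FPKM in controls. What an exact 0 stands for in these data is not given, and without control replicate 1 the log2 fold change was 0.064. Tpt1 and Tmbim6, the most abundant of the list, overlapped between groups, at 606 and 388 FPKM against 460.4, 551 and 519 FPKM, and at 331 and 375 FPKM against 333.05, 299.5 and 264 FPKM.

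**Figure D5:**
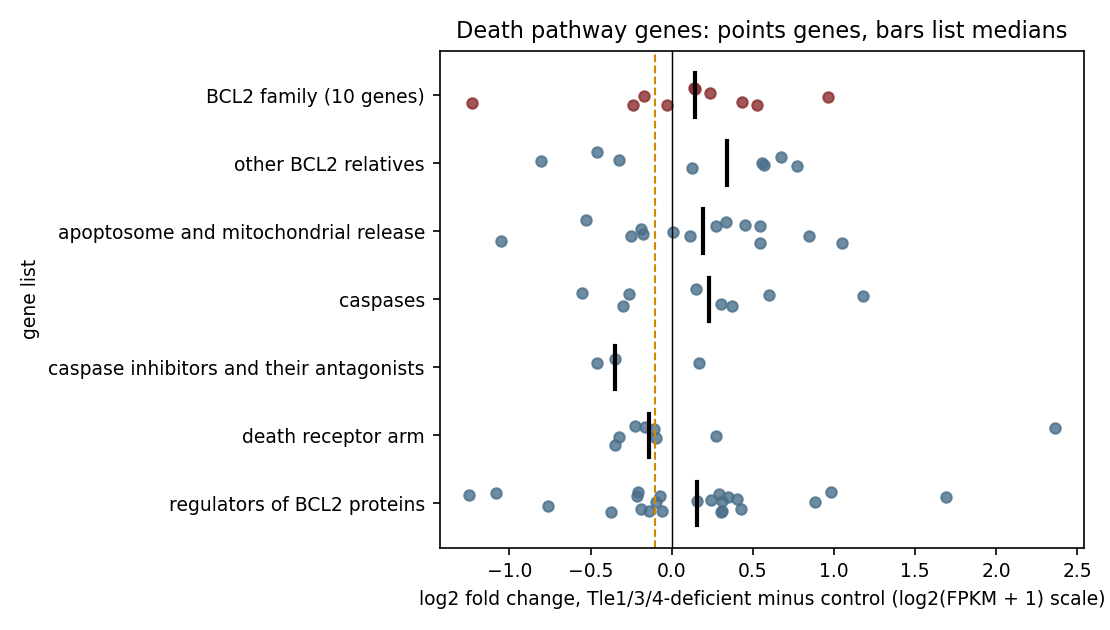
Log2 fold change (deficient-labelled minus control, log2(FPKM + 1) scale) of the 10 family genes and of each tested gene of the 6 other lists, one point per gene, with a bar at each list's median. The medians run from -0.35 for caspase inhibitors to 0.34 for other BCL2 relatives, and the dashed line is the median of all genes tested, -0.10.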

How the data were processed

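RNA-seq was performed on 5 libraries, 2 labelled Tle1/3/4-deficient and 3 control, grouped and numbered by their titles. The authors deposited 1 table of FPKM for 11643 gene symbols; per the submitters' processing notes mm9, TopHat and edgeR were named, with no version or role. Annotation, strand use and any filter were not given in the sources used here. Since FPKM is scaled to the total of a library, very abundant transcripts lower all others there.

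A mean over all libraries of 1 FPKM or more was required (10570 genes), and these were tested with limma 3.58.1 in R 4.3.3 on log2(FPKM + 1), with a mean-variance trend in eBayes and no covariate. Two-sided p-values were adjusted over these genes by the Benjamini-Hochberg method, with a threshold of 0.05. This scale understates the changes of low genes. The fit was tested on simulated data. Members and lists were chosen with earlier results of these data known. From each list the text names genes past the threshold, otherwise the 2 highest by mean and the 1 with the largest absolute fold change. A marker list of another cell type is not reported here. Relative depth is the commonest ratio of values under 0.3 FPKM between libraries, within 0.5%. Exon overlaps were looked up by symbol in GENCODE M21, a later build. Python 3.11.15 with pandas 2.3.3 and matplotlib 3.10.9 was used for summaries and plots. Alternatives covered the pseudocount, the filter, scaling, the variance prior, weights per library, a block for the replicate number, and leaving out each library.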

Additional observations from a re-analysis of the deposited data

How the results depend on the processing

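No family member and none of the listed death pathway genes passed under any of the 15 alternatives. Of the comparisons of a member's sign with that of the reported value, 134 kept it and 13 turned. Over all genes, 2 passed as reported, and 0 with a pseudocount of 0.5 or 0.1, without a filter or with array weights. The count was 4 with median-of-ratios scaling, 1 with eBayes without trend, 5 with robust eBayes, and 0 to 5 when each library was left out. The labels do not say whether equal replicate numbers pair the samples. Deviations of same-numbered libraries correlated at 0.0352 and 0.0069. With only 2 libraries labelled deficient, their deviations mirror each other, so these values cannot decide whether the samples are paired. The replicate block, which leaves control replicate 3 without a partner, gave 22 genes, none of them a family member. With each library left out, log2 fold changes ran from -0.77 to 0.30 for Bcl2, -0.36 to 0.63 for Mcl1, -0.14 to 0.61 for Bax, -0.20 to 0.16 for Bak1, -0.36 to 0.016 for Bad and -1.21 to 1.501 for Bcl2l11. They ran from -0.022 to 0.52 for Bcap31, -0.23 to 0.55 for Birc6, -0.025 to 0.28 for Bnip3l, -0.12 to 0.42 for Casp2 and -0.39 to 0.25 for Tpt1. Signs also turned for Bak1, to 0.077 under median-of-ratios scaling and 0.11 under quantile normalization. Those for Bcl2l11 turned to -0.16 with a pseudocount of 0.1 and -0.068 with array weights. Tpt1 turned to 0.059 under median-of-ratios scaling, and Birc6 to -0.23 under the replicate block; the cause was not tested. Median-of-ratios scaling moved the median of all genes from -0.10 to 0.014, by over 0.1. With only 2 libraries labelled deficient, the unadjusted 95% intervals of Mcl1, Bak1, Bcl2l11 and Bmf reach past 1 log2 unit in both directions. Those of Bcl2 and Bbc3 reach past it downward only, to -1.39 and -2.95, and those of Bcl2l1 and Bid upward only, to 1.35 and 1.89. A difference of that size is thus not excluded in any of these genes, in the directions named. Estimated differences near that size did not pass either. Bid at 0.96 and Bbc3 at -1.23 had limma adjusted p = 0.574 and 0.68. Bcl2l11 and Bmf were not tested with a minimum mean of 5 FPKM, nor Bmf without deficient-labelled replicate 2.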
